A study of Mus musculus with 12 samples.

Results

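The Hsd3b genes of the mouse encode 3β-hydroxysteroid dehydrogenases, and they were followed here in the livers of 12 male C57BL/6 mice. Every microarray probe that the scanner output names Hsd3b1 to Hsd3b7 was taken, 9 of 41174 probes on the array, for 7 of its 27962 gene or transcript names, with 3 probes for Hsd3b2 and 1 for each of the other 6 genes. The mice were wild type for Sirt1 (SIRT1+/+, WT) or heterozygous (SIRT1+/-, Het), and their food for 34 weeks was low or high in fat. There were thus 4 groups of 3 mice, described by the submitters as biological replicates, with 1 array of 1 colour (Cy3) per mouse. The labels name no tissue restriction of the Sirt1 allele, and neither age nor litter is given. The family was chosen by the diet differences of Hsd3b4 and Hsd3b5, which were among the largest decreases in earlier results of these data. Diet differences of the Hsd3b probes are therefore given as a description, and how many of them pass a threshold is read as no evidence. Tests are given for genotype, for the spread within groups and for the diet in genes outside the family.

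A 3β-hydroxysteroid dehydrogenase of the classical kind oxidises the hydroxyl group at carbon 3 of a steroid precursor and shifts a double bond, a step needed to make progesterone, androgens and corticosteroids. In the mouse, Hsd3b1, Hsd3b2, Hsd3b3 and Hsd3b6 are of this kind, and Hsd3b1 is the form of the adrenal gland and gonads. Hsd3b4 and Hsd3b5 work in the other direction, as 3-ketosteroid reductases that inactivate active androgens, and Hsd3b5 is a classical male-specific gene of mouse liver whose expression depends on the pulses of growth hormone. Hsd3b7 acts on sterols in the making of bile acids from cholesterol.

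The genes resemble each other closely, so the probe sequences were compared first, as these decide which transcripts a spot can report. All 9 probes were 60 bases long. Over their 36 pairs, the longest run of identical bases was between 4 and 9 bases. The 30 bases around the shared run are shown 5′ to 3′, with the run in capitals, for the probes of Hsd3b4 and Hsd3b5, whose signals were almost interchangeable, and for the pair with the longest run.
Hsd3b4 probe, bases 1 to 30: cttgtaggTTAGAAtttcatcagggcttcc
Hsd3b5 probe, bases 22 to 51: ccagagagggacTTAGAAacaactcaactc
Hsd3b2 probe A_52_P339759, bases 29 to 58: gaatggccatGAGGAAGAGtgtcatgaaag
Hsd3b6 probe, bases 8 to 37: gaatggcaacGAGGAAGAGcatcatgaaag
The Hsd3b4 and Hsd3b5 probes shared no run longer than 6 bases. The Hsd3b2 and Hsd3b6 probes matched at 31 of 39 aligned bases (79.5%) around their run of 9. None of the 41165 other probes of the array shared 16 bases with any of the 9 on either strand. These counts compare probes with probes. How far each probe also pairs with the transcript of another family member was not tested, and levels are given with that limit.

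By the coordinates of the array design (mm7, per the file headers), 7 of the 9 probes lay on the minus strand of chromosome 3 within 233.5 kb. From low to high position these were Hsd3b5 (chr3:98414360-98414419), the Hsd3b2 probes A_52_P318447 (chr3:98505782-98505841), A_51_P226567 (chr3:98506611-98506670) and A_52_P339759 (chr3:98507615-98507674), Hsd3b3 (chr3:98537796-98537855), Hsd3b6 (chr3:98601948-98602007) and Hsd3b1 (chr3:98647842-98647901). The Hsd3b4 probe was on an unplaced sequence of that build (chrUn_random:1163191-1163250), and Hsd3b7 was on chromosome 7 (chr7:123900149-123900208). The exon or UTR that each probe falls in was not analysed here.

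A level here is the log2 of a spot's processed intensity minus the log2 of the 75th percentile of its array, so 0 is as bright as that percentile and each unit is a doubling. The 75th percentile ran from 975.1 to 2006 intensity units, and per array 58.0% to 71.6% of spots were well above background. All 9 probes passed the filter on dim probes, and none was saturated. Of these, 8 lay well above background on all 12 arrays. The exception was Hsd3b2 probe A_51_P226567, which was blank on WT high-fat replicate 2. There its processed intensity was 8.17, against 5663 to 32001 on the other 11 arrays, and its raw mean of 43.1 lay at the local background of 43.5. On that array 14 spots were at background that exceeded 1000 units on all 11 others, 6 of them within 10 rows and columns of this spot, and no other array had such a spot. Values of this probe are given with and without that spot.

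Several features of the whole series bear on what follows. The arrays of each diet had their own slides and their own day of scanning, so diet, slide set and scan day cannot be told apart. Sirt1 itself was lower in Het livers on each of its 2 probes, with differences of -0.64 ± 0.09 and -0.44 ± 0.09 (log2 ± SE, over both diets), or 64.1% and 73.8% of WT, with limma p-values of 2.81e-05 and 0.000737 that did not pass adjustment over 25291 probes (adjusted p 0.355 and 0.935). The 8 hepatocyte markers were detected on every array, at summed levels of 1305 to 2050 times the 75th percentile that overlapped among all groups. Of these, Cps1 fell by 1.12 in WT (limma adjusted p 0.00984) and fell by 0.94 in Het (0.00657) on the high-fat diet, and Ttr fell by 0.86 in Het (0.0315), while none passed as higher. Of the 8 markers of steroid-making cells of adrenal and gonad with a probe, 5 or 6 were detected per array. The 6 measured summed to 1.75 to 2.445 on the low-fat diet and 2.52 to 3.97 on the high-fat diet, without overlap of the diets. Star, Nr5a1, Mc2r, Cyp17a1 and Insl3 were detected on all 12 arrays, Cyp21a1 on 10, and Cyp11a1 and Cyp11b2 on none. Cyp17a1 was higher on the high-fat diet in Het by 0.69 (limma adjusted p 0.043). Stellate cell markers summed to 14.9 to 20.1 on the low-fat diet and 23.5 to 40.6 on the high-fat diet, with Col1a1, Col3a1 and Pdgfrb, 3 of 6, higher in each genotype. Macrophage markers summed to 90.7 to 171.7 with overlap among all groups, although Trem2 was higher on the high-fat diet by 2.23 in WT (limma adjusted p 0.0197) and 1.79 in Het (0.0188), and Cd68 by 0.76 in Het (0.0324). The cholangiocyte markers summed to 0.84 to 0.97 in low-fat livers, 1.11 to 1.39 in WT high-fat livers and 0.78 to 2.06 in Het high-fat livers. Of 5 adipocyte markers 1 to 4 were detected per array, and Lep on none. The part of these in the Hsd3b levels was not tested. In whole liver RNA, fewer cells that express a gene and less RNA per cell cannot be told apart.

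The reductases Hsd3b5 and Hsd3b4 were among the bright genes of low-fat liver, were lower on the high-fat diet in WT and were lower again in Het livers on that diet. Hsd3b5 stood at 4.35, 5.39 and 3.99 in the 3 WT low-fat livers, at 4.31, 3.45 and 4.60 in the Het low-fat livers, at 1.87, 0.19 and 2.16 in the WT high-fat livers, and at -4.18, -2.80 and -0.53 in the Het high-fat livers. The low-fat groups overlapped, while every WT high-fat liver lay below every low-fat liver and every Het high-fat liver lay below every WT high-fat liver. The group means in that order were 4.58 ± 0.72, 4.12 ± 0.60, 1.41 ± 1.06 and -2.50 ± 1.84 (SD, n = 3 each). In Het high-fat livers the processed intensity was 53.9, 156.6 and 1131, against 21880 to 49637 in the 6 low-fat livers, and the spot was well above background each time. Replicate 3 of that group was 12.5-fold above replicate 1, the widest range of Hsd3b5 in any group.

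Hsd3b4 had the same order of groups. Its levels were 4.72, 5.23 and 4.23 in WT low-fat, 4.59, 3.78 and 4.62 in Het low-fat, 1.54, 0.11 and 1.75 in WT high-fat, and -3.54, -2.73 and -0.67 in Het high-fat livers. The means were 4.73 ± 0.50, 4.33 ± 0.48, 1.13 ± 0.89 and -2.31 ± 1.48 (SD, n = 3 each). Here too only the low-fat groups overlapped, and the range within Het high-fat livers was 7.34-fold.

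**Figure D1:**
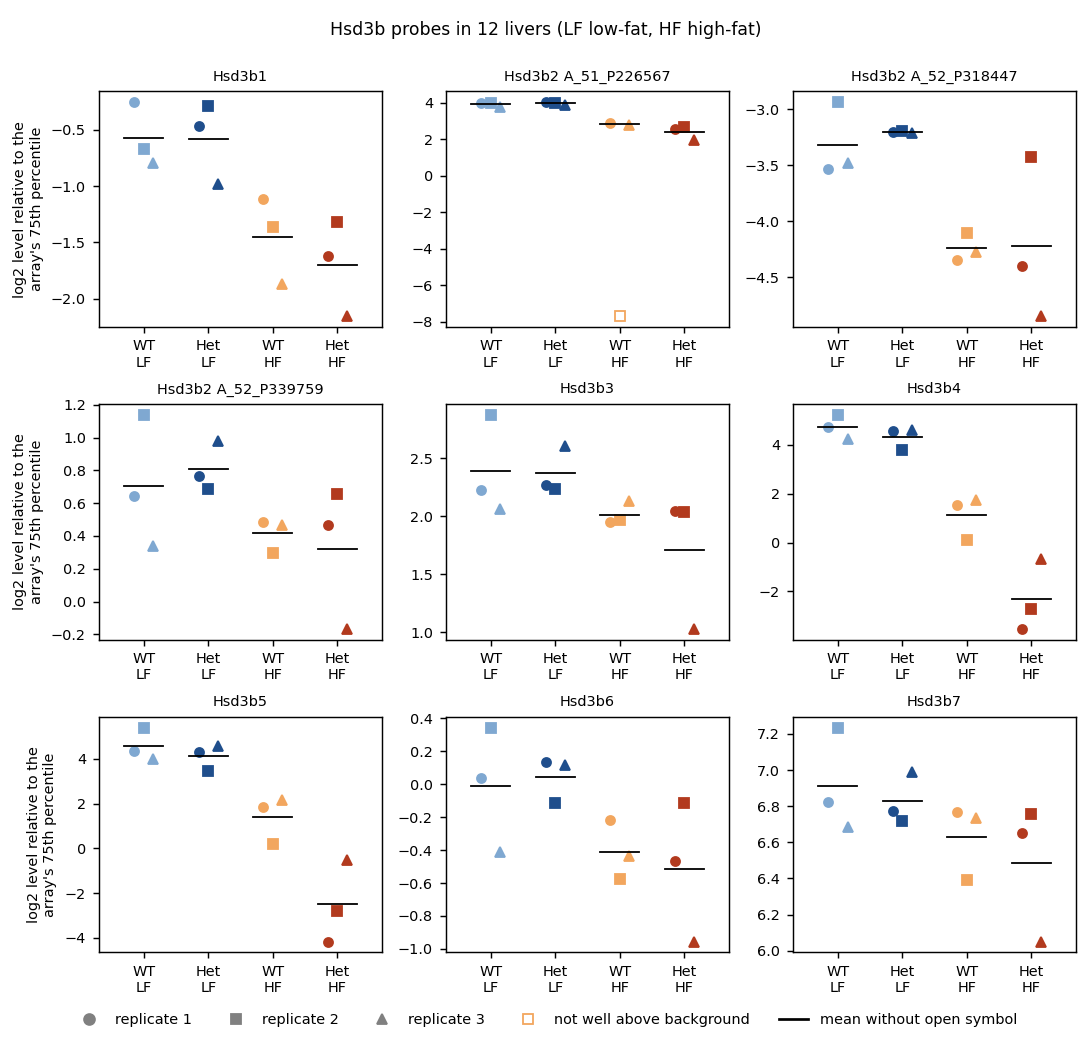
Log2 level of each Hsd3b probe relative to the 75th percentile of its array (vertical axis) in the 4 groups, LF low-fat and HF high-fat; each symbol is 1 liver, its shape the replicate, and the black line is the mean of filled symbols. Hsd3b4 and Hsd3b5 step down from about 4 to 5 in low-fat livers to below 0 in Het high-fat livers, Hsd3b7 stays between 6.05 and 7.23, and the open symbol is the blank spot of Hsd3b2.

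The classical dehydrogenases moved much less. Hsd3b1 stood at -0.26, -0.67 and -0.80 in WT low-fat and -0.47, -0.29 and -0.98 in Het low-fat livers, and at -1.12, -1.36 and -1.87 in WT high-fat and -1.62, -1.32 and -2.15 in Het high-fat livers. All 6 high-fat livers thus lay below all 6 low-fat livers, and within each diet the genotypes overlapped.

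Hsd3b2 was read by 3 probes, and these disagreed on the size of the diet difference. Probe A_51_P226567 stood at 4.0, 3.98 and 3.74 in WT low-fat, 4.03, 3.99 and 3.89 in Het low-fat, 2.91 and 2.80 in the WT high-fat livers with a readable spot (-7.69 where it was blank), and 2.54, 2.69 and 1.93 in Het high-fat livers. Probe A_52_P318447, the dimmest of the family, ran from -3.53 to -2.94 in low-fat livers and from -4.84 to -3.43 in high-fat livers. The diets overlapped on it only through Het high-fat replicate 2. Probe A_52_P339759 ran from 0.34 to 1.14 in low-fat and from -0.17 to 0.66 in high-fat livers, with overlap of the diets. The 3 probes lie within 2 kb of each other and are all assigned to Hsd3b2 by the array design.

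Hsd3b3 stood at 2.23, 2.87 and 2.06 in WT low-fat, 2.27, 2.23 and 2.61 in Het low-fat, 1.95, 1.97 and 2.13 in WT high-fat, and 2.05, 2.04 and 1.03 in Het high-fat livers. Its diets overlapped in WT, and in Het only replicate 3 of the high-fat group lay far below. Hsd3b6 ran from -0.41 to 0.34 in low-fat livers and from -0.96 to -0.11 in high-fat livers, again with overlap. Hsd3b7, the bile acid enzyme, was bright and steady at 6.69 to 7.23 in low-fat and 6.05 to 6.77 in high-fat livers.

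Set side by side, the diet differences part the reductases from the rest of the family. High-fat minus low-fat, Hsd3b5 differed by -3.17 ± 0.82 (log2 ± SE) in WT, 9.0-fold lower, and by -6.62 ± 0.82 in Het, 98.3-fold lower. Hsd3b4 differed by -3.60 ± 0.66 in WT, 12.1-fold lower, and by -6.64 ± 0.66 in Het, 99.9-fold lower. Among all 25291 probes tested, ordered from the largest decrease, Hsd3b4 was 8th and Hsd3b5 21st in WT, and they were the 1st and 2nd in Het. These are the values for which the family was chosen.

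Of the classical enzymes, Hsd3b1 differed by -0.88 ± 0.27 in WT and -1.12 ± 0.27 in Het, 1.84-fold and 2.17-fold lower. Hsd3b3 differed by -0.37 in WT and -0.66 in Het (SE 0.28 each), and Hsd3b6 by -0.40 and -0.56 (SE 0.23 each). For Hsd3b2 the differences were -0.92 and -1.02 (SE 0.30) on A_52_P318447 and -0.29 and -0.49 (SE 0.23) on A_52_P339759. A_51_P226567 gave -1.06 ± 0.21 and -1.58 ± 0.19 without the blank spot, and -4.57 ± 2.13 and -1.58 ± 2.13 with it. Hsd3b7 differed by -0.28 and -0.34 (SE 0.21 each). Each of the 9 probes was lower on the high-fat diet in each genotype. That direction held in every alternative fitted for diet and with any 1 array left out. None of these parts diet from slide set or scan day. Over all probes tested 55.8% were lower in WT and 51.0% in Het, and the median difference was -0.05 and -0.01, against -0.88 and -1.02 over the 9.

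With limma's adjusted p under 0.05 as the threshold, 2 of the 9 probes passed in WT (Hsd3b4 and Hsd3b5), where 5.69% of all probes passed and 3.26% passed as lower. In Het 4 of 9 passed (Hsd3b4, Hsd3b5, Hsd3b1 and Hsd3b2 probe A_52_P318447), where 14.8% of all probes passed and 7.99% as lower. Without the blank spot the counts were 3 and 5, where 1439 and 3744 of all probes passed. When 1 array was left out, the WT call of Hsd3b4 held in 10 of 12 refits and that of Hsd3b5 in 2, with adjusted p-values up to 0.0591 and 0.132. In WT the count was 0 without low-fat replicate 1, 1 without any other WT array or any Het low-fat array, and 3 without Het high-fat replicate 3. Without WT high-fat replicate 2, the blank-spot array, the probe that passed was Hsd3b2 A_51_P226567. In Het the count was 2 without Het high-fat replicate 1 or 3 or Het low-fat replicate 1 or 2. It was 3 or 4 without another array, and the Het calls of Hsd3b4 and Hsd3b5 held each time. Over all probes, 261 to 1642 passed in WT and 1137 to 4138 in Het in these refits. Groups did not overlap for 5 of 9 probes in WT and 8 of 9 in Het, always lower on the high-fat diet. Over all probes 18.5% and 19.2% did so. In Het the gap was only 0.0002 (log2) for Hsd3b6 and 0.03 for Hsd3b2 probe A_52_P339759. Scaling to the array median instead moved the median difference of all probes in WT from -0.05 to 0.06 and the share of passing probes that were higher from 42.6% to 75%. The Hsd3b counts of 2 and 4 were the same under it, where 1647 and 3182 of all probes passed. Since the rule that chose the family used these contrasts, nothing is read from the counts.

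**Figure D2:**
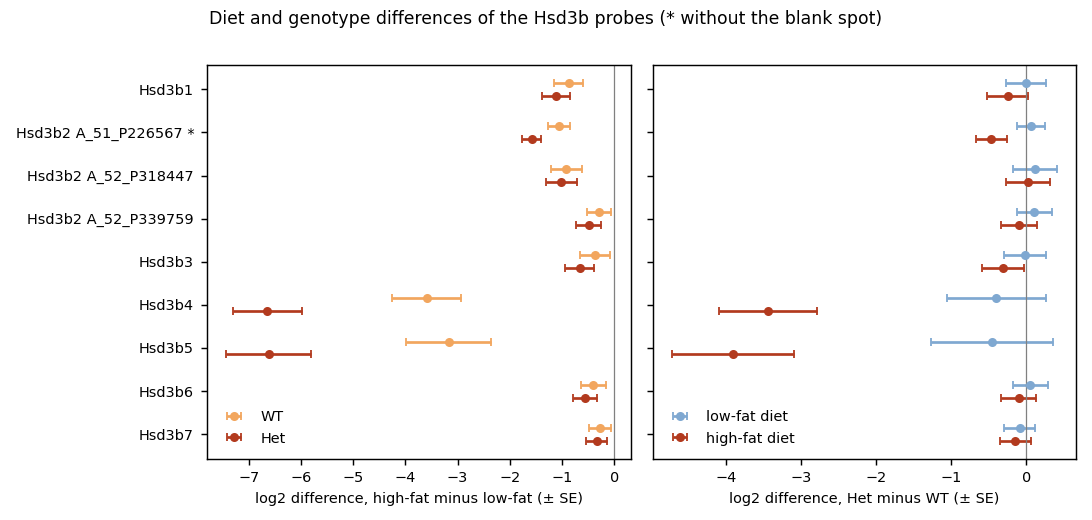
Log2 difference ± SE of each Hsd3b probe (horizontal axes), high-fat minus low-fat in WT and Het on the left and Het minus WT on each diet on the right, from 3 livers per group; the starred Hsd3b2 probe is shown without its blank spot. On the left Hsd3b4 and Hsd3b5 lie between -3.17 and -6.64 and the other probes between -0.28 and -1.58; on the right only Hsd3b4 and Hsd3b5 on the high-fat diet, at -3.45 and -3.91, lie far from 0.

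The genotype comparison asks whether the Sirt1 dose moved the family. The Het high-fat livers used in it also entered the diet differences by which the family was chosen, so for Hsd3b4 and Hsd3b5 the p-values on the high-fat diet and over both diets can be too small through that choice. On the high-fat diet the Het minus WT difference of Hsd3b5 was -3.91 ± 0.82 (log2 ± SE, 95% interval -5.70 to -2.11), 15-fold lower. Its limma p was 0.00056 and its adjusted p over all probes 0.333, so it did not pass. That of Hsd3b4 was -3.45 ± 0.66 (95% interval -4.89 to -2.0), 10.9-fold lower, with a limma p of 0.000271 and an adjusted p of 0.333. All 3 Het livers lay below all 3 WT livers for each gene, and 5.86% of all probes were lower without overlap in this comparison. An exact permutation test of 3 against 3 cannot give a two-sided p below 0.1.

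These differences depended in size on single livers and held their direction throughout. Leaving out 1 array at a time gave -4.89 to -3.07 for Hsd3b5 and -4.27 to -2.83 for Hsd3b4, with the smallest difference without Het high-fat replicate 1 and the largest without Het high-fat replicate 3. The adjusted p lay between 0.139 and 0.747 over these refits and between 0.0989 and 0.671 over the other alternatives. On the 1 slide that held high-fat livers of both genotypes, 3 Het and 1 WT, the differences were -4.66 for Hsd3b5 and -4.06 for Hsd3b4.

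The other members showed no such difference on the high-fat diet. Hsd3b1 differed by -0.25 ± 0.27 (limma adjusted p 0.838), Hsd3b3 by -0.31 ± 0.28 (0.797), Hsd3b6 by -0.10 ± 0.23 (0.93) and Hsd3b7 by -0.15 ± 0.21 (0.88). The Hsd3b2 probes differed by 0.02 ± 0.30 (A_52_P318447, adjusted p 0.991), -0.10 ± 0.23 (A_52_P339759, 0.933) and -0.46 ± 0.21 (A_51_P226567 without the blank spot, 0.553; 3.05 ± 2.13 with it). The first of these changed sign with the scaling, to -0.10 with the array median and -0.11 with quantile normalization, and Hsd3b1 was at 0.17 within the shared slide. These values do not show that the genotypes are alike, since the 95% intervals reached from -0.84 to 0.35 for Hsd3b1, from -0.93 to 0.31 for Hsd3b3 and from -0.61 to 0.31 for Hsd3b7.

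On the low-fat diet the genotypes overlapped for all 9 probes, while 2.64% of all probes were lower without overlap. Hsd3b5 differed by -0.46 ± 0.82 (95% interval -2.25 to 1.34) and Hsd3b4 by -0.40 ± 0.66 (-1.84 to 1.04), and the other 7 probes by -0.09 to 0.12, with a limma adjusted p of 1 for all. The intervals of the reductases are thus wide on this diet. Over both diets Hsd3b5 differed by -2.18 ± 0.58 and Hsd3b4 by -1.92 ± 0.46, each with a limma adjusted p of 0.935. The interaction, which is the diet difference in Het minus that in WT, was -3.45 ± 1.15 for Hsd3b5 and -3.05 ± 0.93 for Hsd3b4 and is given with no test, as it holds the diet differences used for the choice.

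In limma 0 of 25291 probes passed (0%) for genotype on high-fat food, on low-fat food and over both. At an unadjusted p under 0.05 these were 2286, 582 and 1300 probes, and 2, 0 and 2 of the 9 Hsd3b probes, the 2 being Hsd3b4 and Hsd3b5. Over the whole array 0 probes passed for the interaction and 1341 had an unadjusted p under 0.05.

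The spread among livers of 1 group, which the choice of the family did not use, tied Hsd3b4 and Hsd3b5 together. Each level was set against its group mean, and the 12 deviations of the 2 genes had a Pearson r of 0.99 and a Spearman rho of 0.99. The exact permutation p within groups was 0.000772 for r and for rho, the smallest that 1296 arrangements allow, or 0.0139 after Benjamini-Hochberg adjustment over 36 pairs of probes. Without the 2 livers farthest from the median r was 0.98, and without the whole Het high-fat group it was 0.98. The liver with most Hsd3b5 in a group thus also had most Hsd3b4. How far the 2 probes read the same transcript was not tested.

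The other 7 probes were also positively correlated with each other within groups. Their 21 pairs had r between 0.19 and 0.96 with a median of 0.76, all above 0, and 4 of the 21 had an adjusted exact p below 0.05 (3 by Spearman). Without Het high-fat replicate 3, the median fell to 0.52 and 18 of 21 were above 0. That liver was the lowest of its group on all 7 of these probes and the highest of its group for Hsd3b4 and Hsd3b5. The 14 pairs that join a reductase to another member had r between -0.65 and -0.05, none with an adjusted exact p below 0.05. Without that 1 liver they ran from -0.23 to 0.87 with a median of 0.56, and 12 of 14 were above 0. The negative sign between the 2 sets therefore rests on 1 liver. All these deviations are of values scaled to the 75th percentile of each array. In every group Hsd3b2 probe A_52_P339759, Hsd3b6 and Hsd3b7 were lowest on the array with the highest 75th percentile. How much of the correlations comes from that scaling was not tested. No share of such pairs outside the family was counted.

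**Figure D3:**
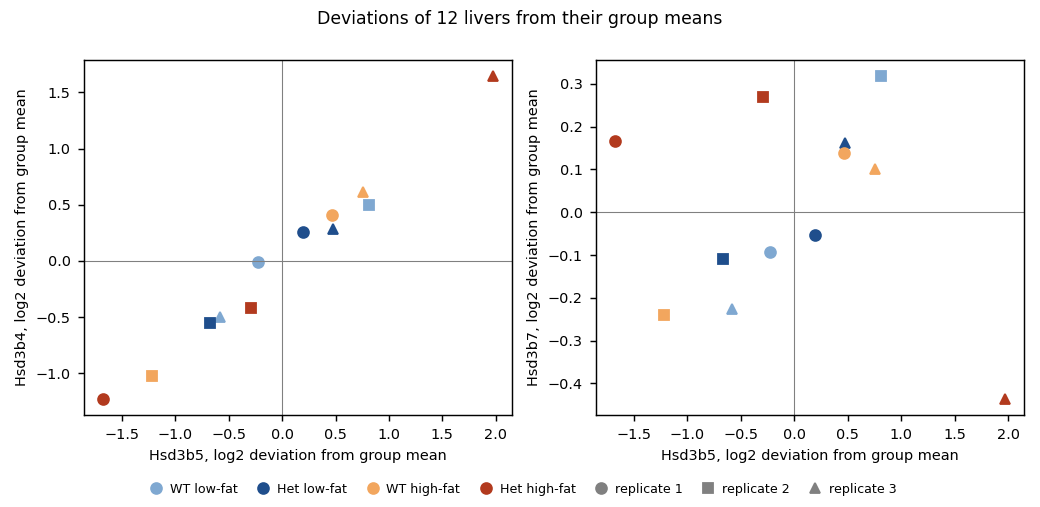
Deviation of each of 12 livers from its group mean (log2) for Hsd3b5 on the horizontal axes, against Hsd3b4 on the left and Hsd3b7 on the right; colour gives the group and shape the replicate. Hsd3b4 follows Hsd3b5 along 1 line (r 0.99), while for Hsd3b7 Het high-fat replicate 3 lies alone at the lower right.

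To see which genes have a pattern like that of Hsd3b5, each gene's levels over the 12 arrays were centred on their mean and compared with those of Hsd3b5 by the root mean square difference, over 14179 genes. This is a likeness on the log2 scale and says nothing of shared control. Hsd3b4 was nearest, at 0.298. The next, at 1.45, was Slco1a1, an organic anion transporter of the hepatocyte surface that is itself a male-predominant liver gene. Then came Rrp1b at 1.82, Adgrf1 at 1.83, Moxd1 at 1.85 and Olfr1410 at 1.86. This measure mixes differences among groups with those within them. The deviations from group means had an r with Hsd3b5 of 0.89 for Slco1a1, 0.44 for Rrp1b and 0.33 for Moxd1. That r was -0.10 for Adgrf1 and -0.52 for Olfr1410. The other Hsd3b genes read by 1 probe were farther off, with Hsd3b1 at 2.61 (400th), Hsd3b3 at 2.76, Hsd3b6 at 2.78 and Hsd3b7 at 2.83.

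Slco1a1 stood at 3.20, 3.44 and 3.08 in WT low-fat, 3.23, 2.67 and 3.23 in Het low-fat, 1.51, 1.27 and 1.45 in WT high-fat, and -1.78, -0.51 and 1.20 in Het high-fat livers. As with Hsd3b5, only the low-fat groups overlapped, and Het high-fat replicate 3 was the highest of its group. As it was picked for this pattern, its differences are a description with no test. Its diet difference was -1.83 ± 0.55 in WT and -3.40 ± 0.55 in Het, and on the high-fat diet it differed between Het and WT by -1.77 ± 0.55. Rrp1b, a nucleolar protein gene, had diet differences of -1.96 in WT and -2.70 in Het, and Adgrf1, an adhesion receptor gene, of -3.18 and -3.03. Moxd1 lay well above background on 5 arrays only, so no fold is given for it. The probe of Olfr1410, an olfactory receptor gene, holds a run of 8 alternating G and T bases, against 2 to 4 in the probes of these genes and the Hsd3b genes. What else it pairs with was not tested.

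**Figure D4:**
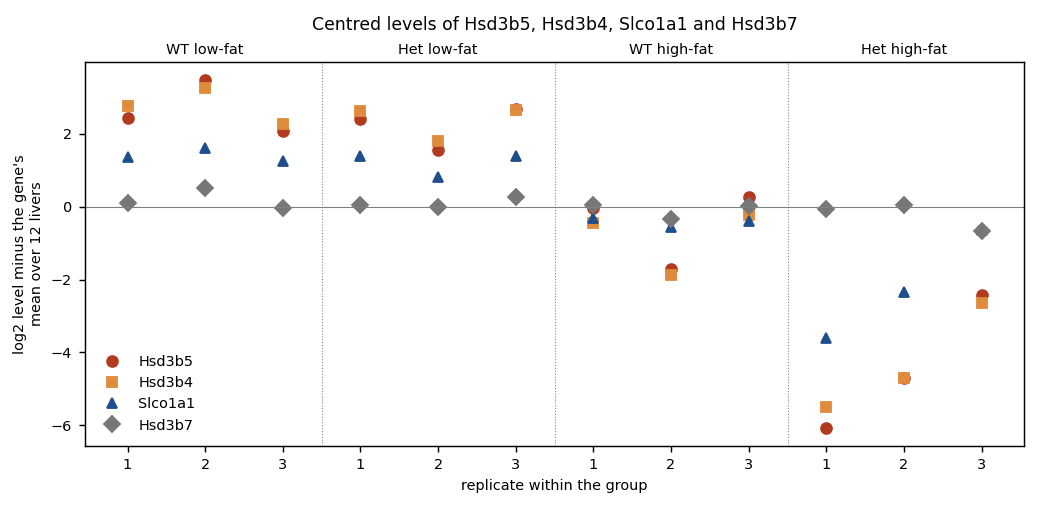
Log2 level minus the gene's mean over 12 livers (vertical axis) for Hsd3b5, Hsd3b4, Slco1a1 and Hsd3b7 in each replicate of each group (horizontal axis). Hsd3b4 overlies Hsd3b5, Slco1a1 takes the same steps at smaller size, and Hsd3b7 stays near 0.

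Around the cluster on chromosome 3, other genes did not share the diet difference as a block. Within 300 kb of its ends the array design places 20 probes, of which 7 are members and 8 others were tested. Among these 8, 2 passed in WT, AK083287 as lower (-1.25) and NAP071090-1 as higher (0.98). In Het 3 passed, AK083287 (-1.14) and Gja5 as lower and NAP071090-1 (1.24) as higher. Gja5, a connexin gene, was well above background on 8 arrays only, so no size is given for it. Hao2, a peroxisomal hydroxyacid oxidase gene beyond the far end of the cluster at 255.8 kb, differed by 0.51 and 1.11 without passing.

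**Figure D5:**
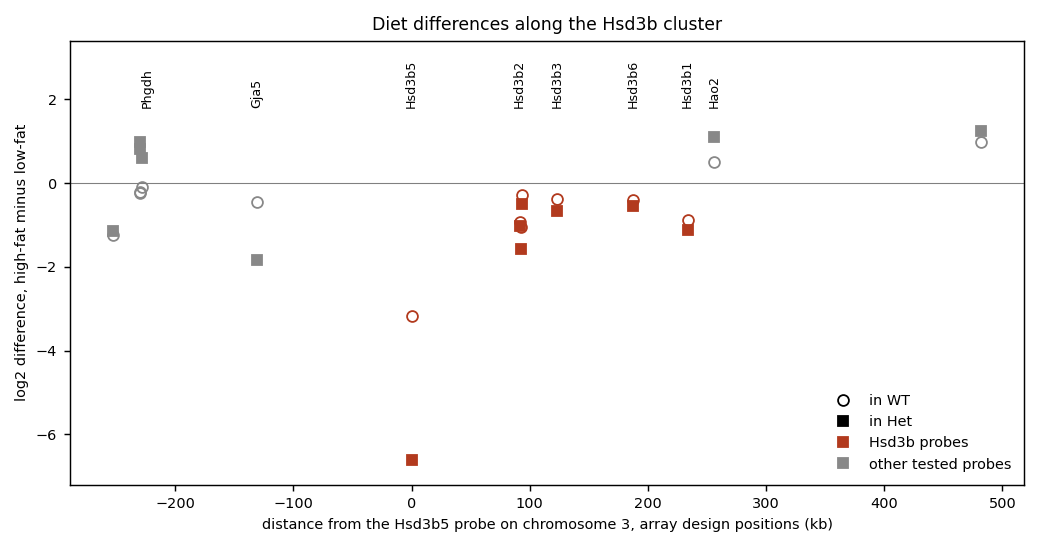
Diet difference (log2, high-fat minus low-fat, vertical axis) against the distance from the Hsd3b5 probe in kb by the positions of the array design, with Hsd3b probes in red, 7 of the 8 other tested probes in grey, open circles for WT and filled squares for Het. The only probe near -3 in WT and below -6 in Het is Hsd3b5 at 0, the other members lie between -1.58 and -0.29, and the neighbours lie on each side of 0.

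A pair of probes outside the rule also touch the family. LOC673307 lies near the Hsd3b4 probe on the unplaced sequence (chrUn_random:1158250-1158309), and 9030618K22Rik, an older name of Hsd3b3, lies in the cluster (chr3:98554653-98554712). Each was well above background on 2 arrays only, WT low-fat replicates 1 and 2, and neither was tested.

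Since Hsd3b4 and Hsd3b5 moved together, their promoters were compared with those of the family, with RefSeq sequences of another build (GRCm38.p6) than the probe positions. The 250 bases before the start are shown for both, minus strand and 5′ to 3′, and beside them those of Hsd3b3, the member most like Hsd3b5 there. Capitals mark the run of 24 bases that Hsd3b5 and Hsd3b3 share.
Hsd3b4, chr3:98510568-98510817: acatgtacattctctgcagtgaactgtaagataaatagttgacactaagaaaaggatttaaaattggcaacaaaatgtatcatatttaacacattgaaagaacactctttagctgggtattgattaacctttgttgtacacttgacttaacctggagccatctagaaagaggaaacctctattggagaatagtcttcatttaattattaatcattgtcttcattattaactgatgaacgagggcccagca
Hsd3b5, chr3:98645535-98645784: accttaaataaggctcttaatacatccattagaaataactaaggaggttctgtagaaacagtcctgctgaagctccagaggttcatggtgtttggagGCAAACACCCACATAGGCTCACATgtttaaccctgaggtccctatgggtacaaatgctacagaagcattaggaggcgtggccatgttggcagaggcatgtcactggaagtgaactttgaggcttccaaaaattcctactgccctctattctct
Hsd3b3, chr3:98762411-98762660: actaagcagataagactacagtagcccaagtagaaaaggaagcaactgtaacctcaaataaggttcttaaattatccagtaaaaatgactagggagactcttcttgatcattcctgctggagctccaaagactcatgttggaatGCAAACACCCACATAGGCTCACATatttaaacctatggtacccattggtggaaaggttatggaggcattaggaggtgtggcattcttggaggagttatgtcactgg
The 250 bases before the start were compared in 21 pairs of genes without gaps, at the best offset that aligned 100 or more bases. A stretch inserted or lost in 1 promoter can therefore hide a likeness. Hsd3b3 and Hsd3b5 matched at 115 of 203 aligned bases (56.7%). The next pair reached 38.7%, and the median was 35.7%. Hsd3b4 and Hsd3b5 matched at 45 of 123 aligned bases (36.6%), with no identical run over 8 bases. The pair whose levels moved together was thus near the median of the family by this measure, which does not show its promoters to be unlike. Whether the probes of this pair read separate transcripts was not tested. Hsd3b3, the most similar to Hsd3b5 there, had diet differences of -0.37 in WT and -0.66 in Het, against -3.17 and -6.62 for Hsd3b5. The STAT5 motif TTCNNNGAA, which reads the same on both strands, was searched because growth hormone acts on liver through STAT5. It occurred in 2 of 7 windows, as TTCTCAGAA at position -122 from the start of Hsd3b1 and TTCCTGGAA at -21 from that of Hsd3b7, and in 8.3% of 32851 promoter windows of the same length. The letters of this motif are not in the windows of Hsd3b4 and Hsd3b5, which says nothing of sites elsewhere.

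The other genes of steroid hormone metabolism, a list of 28 with 25 measured, did not move as one. In WT 2 rose and 1 fell on the high-fat diet, where 2.42% of all probes tested passed as higher and 3.26% as lower. In Het 4 rose and 3 fell, where 6.79% and 7.99% did, with a median of -0.09 and -0.14 against -0.05 and -0.01 over all probes. Srd5a1, the 5-alpha-reductase that acts before the 3-ketosteroid reductases on androgens, fell by 0.74 ± 0.16 in WT (limma adjusted p 0.0272) and by 0.93 ± 0.16 in Het (0.00624). Akr1d1, the 5-beta-reductase shared with bile acid synthesis, fell by 0.94 ± 0.20 in Het (0.0136) and differed by -0.28 ± 0.20 in WT (0.393). Akr1c12, a hydroxysteroid dehydrogenase of another family, fell by 0.60 ± 0.11 in Het (0.00822) and differed by -0.27 in WT (0.153). Sult1e1, the oestrogen sulfotransferase, rose by 1.57 ± 0.39 in WT (0.044) and 1.59 ± 0.39 in Het (0.0243). Others that rose, named after their values were seen, were Hsd17b13 in WT (0.72) and Het (0.49) and Srd5a3 in Het (0.73).

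Of 20 genes of bile acid synthesis, the pathway of Hsd3b7, all were measured, and in WT 1 rose and 1 fell, in Het 1 rose and 2 fell, against 2.42% of all probes higher and 3.26% lower in WT and 6.79% and 7.99% in Het. Cyp7b1, the oxysterol 7-alpha-hydroxylase just before Hsd3b7 in the alternative pathway, fell by 1.28 ± 0.29 in WT (limma adjusted p 0.0321) and 1.40 ± 0.29 in Het (0.0121). Ch25h, cholesterol 25-hydroxylase, rose by 1.33 ± 0.32 in WT (0.0387) and 1.32 ± 0.32 in Het (0.0219). Akr1c14 differed by -0.44 ± 0.16 in Het without passing (0.0893). The median of the list was -0.20 in WT and -0.14 in Het.

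As Hsd3b5 is a male-specific liver gene, the sex-biased genes of mouse liver were counted without the Hsd3b members. Of 17 measured male-biased genes (of 20 listed) 5 fell in WT and 7 in Het, and none rose, with medians of -0.61 and -0.71. Of 16 measured female-biased genes (of 19 listed) 4 rose in WT and 8 in Het, and none fell, with medians of 0.93 and 0.90. Several of those that rose belong to the same subfamilies, Cyp2b and Cyp3a. Whether their probes read separate transcripts was not tested, so they may not count as separate genes. Over all probes 2.42% passed as higher and 3.26% as lower in WT, and 6.79% and 7.99% in Het. The lists were made with earlier results of these data known, so these counts are not independent evidence of their direction, and all mice were male. Among the male-biased genes, beside Slco1a1, Ugt2b1 (a glucuronosyltransferase) fell by 1.09 ± 0.18 in WT (limma adjusted p 0.0137) and 1.03 ± 0.18 in Het (0.00665). C8b, a complement component, fell by 1.19 ± 0.23 (0.0216) and 1.20 ± 0.23 (0.00971). Cyp7b1 and Susd4 also fell in each genotype, and Elovl3 in Het. Moxd1 is also counted as falling in each genotype. It was well above background on 5 arrays only, all low-fat, and passed the filter through the WT low-fat group alone. Its place in these counts is therefore read as no evidence. Among the female-biased cytochromes P450, Cyp2b13 rose by 2.42 ± 0.53 in Het (adjusted p 0.0159) and differed by 1.90 ± 0.53 in WT (0.0606). Cyp2b9 rose by 2.05 ± 0.49 in Het (0.0218) and differed by 1.74 ± 0.49 in WT (0.062). Cyp3a16 rose by 1.02 ± 0.25 in WT (0.0422) and 1.01 ± 0.25 in Het (0.0247). The other female-biased genes that rose in WT were Sult1e1, Cyp3a44 and Abcd2.

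In the growth hormone axis, 13 of 14 genes were measured, and 1 rose and 1 fell in WT, and none rose and 3 fell in Het, against the same shares of all probes. The medians were -0.29 and -0.42, against -0.05 and -0.01 over all probes. Cish, a feedback inhibitor that STAT5 induces, fell by 1.08 ± 0.24 in WT (limma adjusted p 0.0314) and fell by 2.95 ± 0.24 in Het (0.00159). On the high-fat diet the Het minus WT difference of Cish was -1.28 ± 0.24 (limma p 0.00022, adjusted p 0.333). On the low-fat diet it had the other sign, at 0.59 ± 0.24. Cish was named for its low p for diet in Het, which used the same Het high-fat livers. Its genotype p on the high-fat diet can thus be too small through that choice. Hnf4a, a hepatocyte transcription factor, fell by 0.82 ± 0.17 in Het (0.0133), and Stat5b, the transcription factor that carries the growth hormone signal, fell by 0.51 ± 0.14 in Het (0.0321) and differed by 0.04 in WT. The gene that rose in WT was Stat5a, a close relative of Stat5b, by 0.94 (0.0246), with 0.41 in Het (0.163). Prlr, the prolactin receptor, differed by -0.75 ± 0.28 in Het without passing (0.0954).

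No gene of these 5 lists passed for genotype. When 1 array was left out, the calls in Het of Srd5a1, Akr1c12, Akr1d1, Cyp7b1, Ugt2b1, C8b and Cish held each time. Those of Sult1e1, Ch25h, Cyp2b13, Cyp2b9, Cyp3a16, Hnf4a and Stat5b were lost in 1 to 5 of 12 refits, most often without Het high-fat replicate 1. In WT the call of Ugt2b1 held each time, and those of Srd5a1, Sult1e1, Cyp7b1, Ch25h, C8b, Cyp3a16 and Cish were lost in 4 to 9 of 12.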

How the data were processed

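Total liver RNA was hybridised to 1-colour Agilent arrays, 1 array for each of 12 mice in 4 groups of 3. The deposited scanner tables hold processed intensity values. The scanner software was Agilent Feature Extraction, version 9.5 in the submitters' processing notes, and its values are background-subtracted and detrended within each array, per the file headers, with no normalization between arrays recorded. The deposited table of the series held the same intensity values on all 45018 spots of every array, linear and not centred, with medians of 86.3, 117.1 and 78.3 (WT high-fat), 80.2, 83.2 and 114.6 (Het high-fat), 142.1, 95.2 and 129.9 (WT low-fat) and 142.4, 163.4 and 101.8 (Het low-fat).

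From these deposited intensities, log2 values were taken and each array's 75th percentile over non-control spots was subtracted. Control spots and 1344 outlier-flagged spots were left out, and spots of a probe were averaged. A probe was tested if every array of some group showed it well above background and every group had 2 or more values for it, which left 25291. Probes were named by accession (22951), current symbol (6659) or older symbol (3109) through a RefSeq table, and 8455 kept the name of the array.

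A model of 4 group means was fitted with limma 3.58.1 in R 4.3.3, with moderated two-sided tests, 8 residual and 2.99 prior degrees of freedom, and Benjamini-Hochberg adjustment over all probes tested, at a threshold of 0.05. Precision is limited by the number of arrays.

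The genes, lists and tests were chosen with earlier results of these data known. Named are all Hsd3b probes, the 5 other genes nearest to Hsd3b5, up to 4 genes of each list with the lowest p for diet in Het, and Sirt1. Other genes are named where a count is 5 or fewer, and 2 genes within the counts are not reported here. Of several probes of a gene the brightest was used for lists and likeness. Alternatives were other scalings, normexp background correction, no filter, 1 probe per gene, fits of 2 groups, replicate or slide as a block, and leaving out each array. The correlations without Het high-fat replicate 3 or its group, and the fits without the blank spot, were chosen after seeing the data.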

Additional observations from a re-analysis of the deposited data

How the results depend on the processing

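Every Hsd3b probe kept its lower level on the high-fat diet in each genotype under all alternatives fitted for diet. Slide as a fixed block was fitted for genotype and the interaction only, as no slide held both diets. Hsd3b4 and Hsd3b5 kept their lower level in Het than in WT on the high-fat diet under all alternatives. In WT, the count of Hsd3b probes past the threshold was 2 in the main fit, where 1438 of 25291 probes passed. It became 1 with quantile normalization (1345 over all probes). With no filter on dim probes, where 41168 probes were adjusted together, it was 0 (206 over all). With slide as a random block it was 4 (5454 over all), at an estimated correlation within slides of -0.179. It was 3 with normexp (1718) or a fit of the WT groups alone (1003 of 24383). When 1 array was left out it was 0 to 3 (261 to 1642). In Het, the count was 4 in the main fit, where 3738 of 25291 probes passed. It became 6 with slide as a random block (7805 over all probes) and 5 with normexp (4602). It was 3 with 1 probe per gene (2714 of 17164) and 2 with no filter (1567 of 41168). When 1 array was left out it was 2 to 4 (1137 to 4138). As before, nothing is read from these counts. For genotype the count of Hsd3b probes was 0 throughout, where 0 to 58 of all probes passed. Replicate numbers are shared by the group labels but did not pair the livers: same-numbered arrays correlated at -0.46 to 0.46 in their deviations, with 3 of 18 above 0.1, and 3 of 12 correlated best with their own number. With a replicate block the Hsd3b counts were 2 in WT, where Hsd3b1 passed in place of Hsd3b5, and 4 in Het. Over all probes 690 passed in WT and 2624 in Het with that block.

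Small genotype differences changed sign, and the cause was not tested. On the high-fat diet Hsd3b2 probe A_52_P318447 was at -0.095 with the median, -0.11 with quantile normalization and -0.014 with normexp. With slide as a fixed block, Hsd3b1 was at 0.17 and A_51_P226567 at -0.41, and the latter was at -0.46 without its blank spot. On the low-fat diet Hsd3b1 was at 0.00079 with the median and 0.11 with the fixed block, and Hsd3b3 at 0.0095 with the random block. Over both diets A_52_P339759 was at -0.050 with the median, -0.0026 with quantile normalization, -0.0042 with normexp and -0.044 with the fixed block, which put Hsd3b1 at 0.14, A_51_P226567 at -0.14 (-0.20 without the blank spot) and Hsd3b6 at 0.036. The interaction was 0.063 for Hsd3b1 and -0.53 for A_51_P226567 with the fixed block, and -0.53 for the latter without the blank spot.

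Leaving out 1 array gave, on the high-fat diet, -0.46 to 4.83 for A_51_P226567, -0.38 to 0.33 for A_52_P318447, -0.27 to 0.15 for A_52_P339759, -0.48 to 0.030 for Hsd3b3, -0.30 to 0.12 for Hsd3b6 and -0.28 to 0.072 for Hsd3b7. On the low-fat diet it gave -0.15 to 0.20 for Hsd3b1, -0.021 to 0.11 for A_51_P226567, -0.079 to 0.32 for A_52_P339759, -0.18 to 0.23 for Hsd3b3, -0.15 to 0.23 for Hsd3b6 and -0.20 to 0.072 for Hsd3b7. Over both diets it gave -0.20 to 2.45 for A_51_P226567, -0.13 to 0.22 for A_52_P318447, -0.088 to 0.13 for A_52_P339759, -0.25 to 0.0067 for Hsd3b3 and -0.12 to 0.089 for Hsd3b6. The interaction ran from -0.53 to 4.77 for A_51_P226567, -0.49 to 0.21 for A_52_P318447, -0.42 to 0.040 for A_52_P339759, -0.53 to 0.046 for Hsd3b3, -0.35 to 0.067 for Hsd3b6 and -0.22 to 0.16 for Hsd3b7. Among the listed and nearest genes, the diet difference of Stat5b in WT ran from -0.063 to 0.15. Of 414 values of these genes under the other alternatives, 368 kept their side of the threshold, 31 fell short of it and 15 newly passed.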
